A study of Mus musculus with 30 samples.

Results

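This report follows 10 genes of leukocyte recruitment, out of 20321 genes in the table, through regeneration of the mouse digit tip. They are the chemokine ligands Cxcl1, Cxcl2, Cxcl3, Cxcl5, Ccl2 and Ccl7, the receptors Cxcr2 and Ccr2, the cytokine Il1b and its antagonist Il1rn. The genes were picked by symbol when results from these libraries were already known. Their levels and folds over time are therefore given as a description, with no p-value. How many of them the tests across all genes called is given once, beside the share of all genes called. Separate tests are given for the difference between periods of the dates in the library titles, which the choice did not use. The titles do not say what these dates mark. All 10 passed the filter on low counts, which kept 13793 genes.

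Chemokines are small secreted proteins that draw leukocytes along a gradient. Ligands of the CXC class that carry an ELR motif, among them Cxcl1, Cxcl2, Cxcl3 and Cxcl5, act on Cxcr2 and are known for recruiting neutrophils to a wound. The CC ligands Ccl2 and Ccl7 act on Ccr2 and are known for recruiting monocytes. Il1b, made by activated myeloid cells among others, signals through Il1r1 to NF-kB and raises transcription of many chemokines, while Il1rn occupies the same receptor without signalling. Skin keratinocytes are a known source of Il1rn.

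The samples were the third hindlimb digit (distal phalanx, P3) of adult male C57Bl/6 mice, with no transgene or drug in any group. The tip of the bone was cut off and the skin left unsutured, and the digits were collected at 0 h, which is the only control, or later. The later hours were 3, 6, 12 and 24, and the later days 3, 7, 14 and 21. There were 3 mice at each time point and 6 at 7 d, giving 30 libraries of polyA RNA from whole digit tissue. In such bulk samples, fewer cells of a type and less RNA per cell cannot be told apart.

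Libraries held between 3167625 and 16277816 expected counts in all (median 6103688). By the dates their titles carry, 16 libraries are of July to August (the early period) and 14 of November to January (the late period). All mice at 3 h and 12 h were early and all at 21 d late. At 0 h, mouse 3 was early and mice 1 and 2 were late. Mice 3, 4 and 6 at 7 d are labelled left foot and all others right foot. Mouse 3 at 0 h and mouse 2 at 12 h carry the same code and date in their titles, so results were also computed without both. They are named below as the 2 libraries that share a title code. Some codes recur with another date, such as this one in mouse 2 at 3 h, and the titles do not say what the code marks. The labelled tissue held its markers, with summed keratinocyte markers (6 genes) of at least 31170 CPM (counts scaled to library size with TMM normalization) in every library.

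The 4 CXC ligand genes lie together on chromosome 5 of GRCm38, all on the plus strand. Cxcl5 spans chr5:90759360-90761624, Cxcl3 chr5:90786103-90789600, Cxcl1 chr5:90891241-90893115 and Cxcl2 chr5:90903871-90905938. Ccl2 (chr11:82035571-82037453) and Ccl7 (chr11:82045712-82047525) are neighbours on chromosome 11. Il1b (chr2:129364570-129371139, minus strand) and Il1rn (chr2:24336853-24351494, plus strand) share chromosome 2 but lie far apart. Cxcr2 is at chr1:74153989-74161246 and Ccr2 at chr9:124101950-124113557.

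Promoter sequence from RefSeq (GRCm38.p6, 250 bases before to 50 after the start) was at hand for 7 of the 10 genes, in 9 records. It was searched on both strands for the NF-kB consensus, the AP-1 motif TGANTCA and the TATA motif TATAAA. The 120 bases before the start are shown for the 3 neighbouring CXC ligands and Il1b, the genes whose levels are compared most closely, with the NF-kB match in capitals.
Cxcl1 (chr5:90891125-90891244, plus strand): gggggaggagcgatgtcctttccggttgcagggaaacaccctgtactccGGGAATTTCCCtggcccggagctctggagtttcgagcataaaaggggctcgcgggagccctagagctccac
Cxcl2 (chr5:90903779-90903898, plus strand): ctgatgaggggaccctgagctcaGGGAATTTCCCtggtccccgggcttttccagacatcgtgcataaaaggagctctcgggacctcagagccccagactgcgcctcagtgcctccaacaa
Cxcl3 (chr5:90785981-90786100, plus strand): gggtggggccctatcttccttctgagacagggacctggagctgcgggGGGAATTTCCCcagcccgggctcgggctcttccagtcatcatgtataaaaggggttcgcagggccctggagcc
Il1b (chr2:129371140-129371259, minus strand): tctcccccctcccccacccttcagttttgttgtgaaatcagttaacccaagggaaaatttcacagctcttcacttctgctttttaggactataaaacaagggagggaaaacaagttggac

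The same 11 bases, GGGAATTTCCC, matched the NF-kB consensus in all 3 CXC promoters, from -71 to -61 in Cxcl1, from -97 to -87 in Cxcl2 and from -73 to -63 in Cxcl3, counted from the start. No match was found in this window of Il1b, nor in the records of Il1rn, Cxcr2 and Ccr2. The starts are those of the promoter records, not of the gene coordinates given above. For Cxcl2 the 120 bases before the start run to base 90903898, past the gene coordinate of 90903871. The position of its match relative to those of Cxcl1 and Cxcl3 thus depends on the start taken. Of 32851 mouse promoters of the same length, 4.51% held an NF-kB match, 7.81% the AP-1 motif and 13.6% the TATA motif. TATAAA stood at -31 to -26 in Il1b and at -30 to -25 in Cxcl3. One Il1rn record held an AP-1 match (TGAGTCA, -141 to -135). A match describes letters and is not evidence of binding.

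Over the 9 time points, the 6 chemokine ligands and Il1b were low at 0 h and higher afterwards, while Il1rn and Cxcr2 stayed near their 0 h level. Cxcl1, Ccl2 and Ccl7 were above every 0 h mouse in all mice as early as 3 h. Cxcl2 and Il1b reached that at 6 h and had their highest mean CPM at 24 h. Cxcl5 and Cxcl3 had their highest mean at 14 d.

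**Figure D1:**
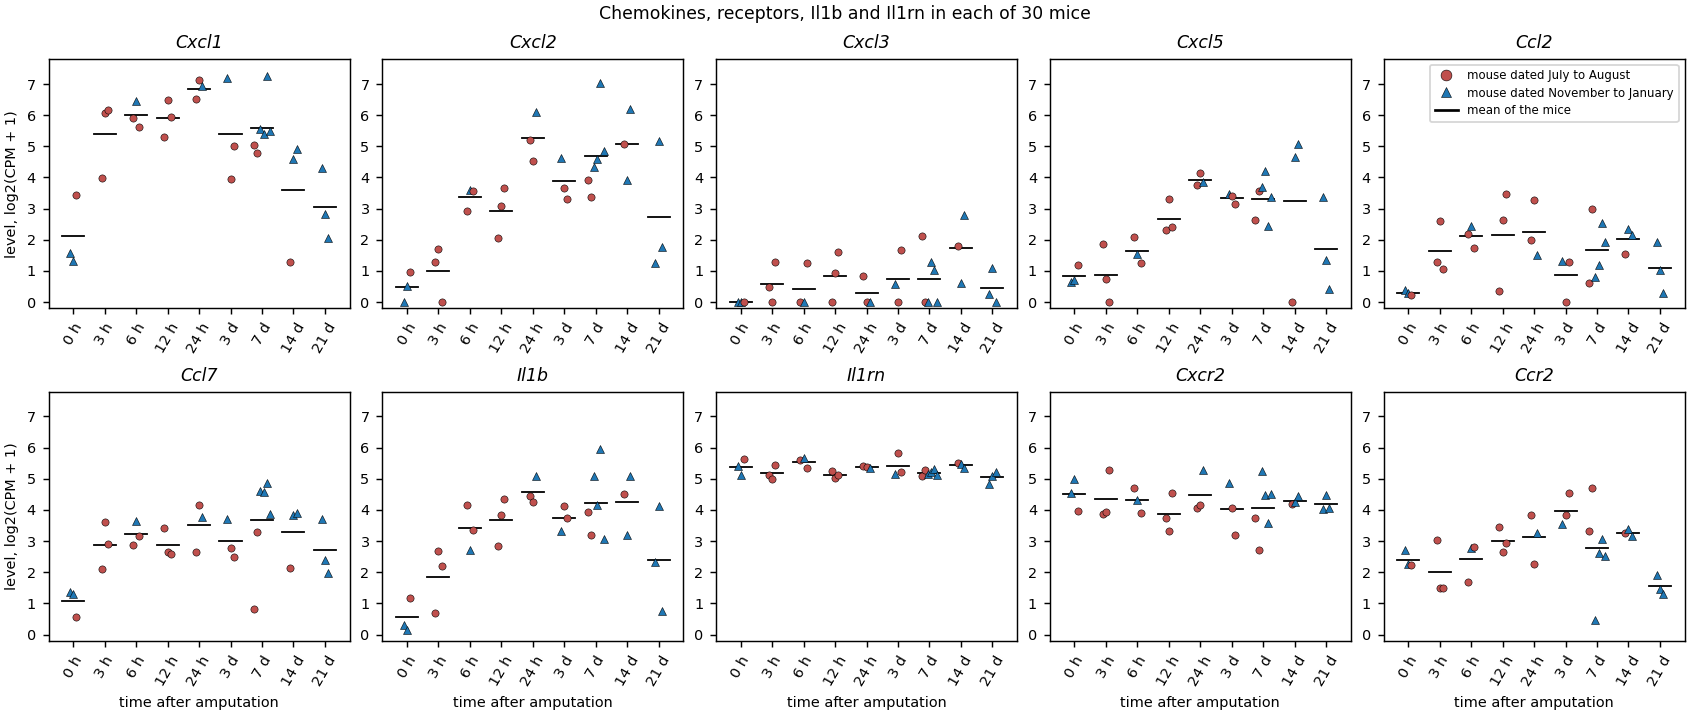
Level of each of the 10 genes, as log2(CPM + 1), against time after amputation, with 1 point per mouse, circles for July to August and triangles for November to January, and a line at the mean. Ligands and Il1b start low at 0 h and spread widely at the late times, whereas Il1rn lies in a narrow band throughout.

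Cxcl1, a neutrophil attractant, had the highest mean TPM of the 10 genes at its highest time (253 at 24 h). At 0 h its levels were 2, 1.49 and 9.76 CPM, the highest in the early mouse 3. At 3 h they were 14.9, 65.5 and 71.6 CPM, at 6 h 58.6, 87.3 and 47.8 CPM, and at 12 h 38.6, 88.8 and 60.3 CPM. The 24 h mice had 89.7, 138 and 122 CPM and stood above every mouse at 6 h, the time with the next highest mean. All mice from 3 h to 7 d lay above every 0 h mouse. The mean level went from 4.42 ± 4.63 CPM before to 116 ± 24.4 CPM at 24 h (SD, n = 3 each), which the fit gave as a log2 fold change of 4.82 (SE 0.95). Without mouse 3 at 0 h this log2 fold change was 6.04.

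From 3 d on, Cxcl1 differed strongly between mice. The 3 d mice had 145, 14.4 and 31.1 CPM. The 6 mice at 7 d had 26.3 CPM at the lowest, 42.8 at the median and 152 at the highest, which was mouse 5 with 1182 counts. At 14 d the levels were 1.41, 23.4 and 29.1 CPM, so that mouse 1, with 8 counts, fell below every 0 h mouse. The 21 d mice had 18.9, 6.05 and 3.19 CPM and overlapped 0 h. In the order of mean levels, 24 h and 6 h were the only neighbours of Cxcl1 without overlap.

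Cxcl2, another Cxcr2 ligand, left its 0 h range at 6 h. At 0 h it had 0, 0.426 and 0.960 CPM, at most 6 counts in a mouse. The 3 h mice, with 1.43, 2.24 and 0 CPM, still overlapped these. At 6 h the levels were 6.63, 11.1 and 10.8 CPM and at 12 h 3.17, 7.43 and 11.7 CPM, all above 0 h. At 24 h they were 35.7, 22.0 and 67.8 CPM. The log2 fold change at 24 h was 6.71 (SE 1.28), with means of 41.8 ± 23.5 and 0.462 ± 0.481 CPM (SD, n = 3 each). It was 7.67 without mouse 3 at 0 h, 5.94 without mouse 1 at 0 h and 5.37 as a mean difference in log2(TPM + 1).

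The late Cxcl2 values stayed above 0 h in every mouse. At 3 d they were 23.8, 11.8 and 8.98 CPM. At 7 d the lowest, median and highest were 9.45, 21.3 and 129 CPM, the last again in mouse 5, with 1004 counts. The 14 d mice had 32.9, 14.0 and 73.1 CPM. At 21 d mouse 2 had 35.1 CPM, against 1.39 and 2.39 CPM in the other mice. The fitted log2 fold change was 6.56 (SE 1.24) at 7 d, 6.66 (SE 1.28) at 14 d and 5.06 (SE 1.26) at 21 d. By mean TPM, 14 d and not 24 h was the highest time of Cxcl2.

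Cxcl3 was the rarest ligand. It had 0 counts in all 3 mice at 0 h, where 3 counts, the smallest number taken as detectable, correspond to a mean of 0.347 CPM. It had 3 counts or fewer in 16 of the 30 libraries. All 3 mice at 14 d exceeded this, with 2.47, 0.515 and 5.98 CPM, from 5.3 to 68.6 counts. Their mean was at least 8.62-fold higher than 0 h, taken against the floor over the group, and at least 4.31-fold without mouse 3, a value added after the data were seen. The Cxcl3 counts may include reads shared with Cxcl2, which had 185.85, 135.64 and 843.53 counts in these mice. The part of such reads in the bound was not tested. At 24 h the mean, 0.260 CPM, was under that floor. At the other times the bound lay between 1.29-fold at 21 d and 2.85-fold at 12 h.

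Cxcl5, a Cxcr2 ligand known from epithelial and stromal cells, also left its 0 h range at 6 h. Its levels at 0 h were 0.560, 0.640 and 1.28 CPM. The 3 h mice, with 2.65, 0.670 and 0 CPM, lay on both sides of these. At 6 h it had 3.24, 1.93 and 1.37 CPM, and at 12 h 4.00, 8.88 and 4.29 CPM. The 24 h mice were close together at 12.5, 16.6 and 13.3 CPM, a log2 fold change of 4.14 (SE 1.05). At 3 d the levels were 10.0, 9.70 and 7.77 CPM, and at 7 d they ran from 4.49 over a median of 10.1 to 17.5 CPM. Every mouse from 6 h to 7 d was above every 0 h mouse.

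Cxcl5 split the 14 d mice. Mouse 1, the early one, had 0 counts, which at its depth allows up to 0.530 CPM. Mice 2 and 3 had 24.0 and 32.7 CPM, up to 377 counts, the highest levels of Cxcl5 in the series. The 14 d mean of 18.9 ± 16.9 CPM (SD, n = 3) and its log2 fold change of 4.57 (SE 1.06) rest on those mice. It was 3.89 without mouse 3 at 14 d, and the mean difference in log2(TPM + 1) was 2.49 and in log2(TPM + 0.1) 2.23. At 21 d the levels were 9.35, 1.54 and 0.342 CPM.

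Ccl2, the main Ccr2 ligand, was at most 4 counts in a 0 h mouse, at 0.320, 0.213 and 0.160 CPM. At 3 h it had 1.43, 5.14 and 1.1 CPM and at 6 h 3.53, 4.46 and 2.35 CPM, all above 0 h. The highest mean, 5.22 ± 4.93 CPM (SD, n = 3), was at 12 h, where mouse 1 had only 0.276 CPM against 5.26 and 10.1 CPM. At 24 h the mice had 2.96, 8.63 and 1.87 CPM. The log2 fold change was 4.34 (SE 1.17) at 12 h and 4.14 (SE 1.17) at 24 h. The 12 h value was 3.42 without mouse 3 at 12 h and 2.61 as a mean difference in log2(TPM + 1). Ccl2 was low again at 3 d, with 1.47, 0 and 1.46 CPM, and above 0 h in all mice at 7 d (0.518 to 6.92 CPM) and 14 d (1.94, 4.12 and 3.47 CPM). No time point of Ccl2 stood clear of the next in the order of means.

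Ccl7, which shares Ccr2 and its chromosomal neighbourhood with Ccl2, had more counts. At 0 h it had 1.60, 1.49 and 0.480 CPM, at 3 h 3.26, 11.2 and 6.51 CPM, and at 24 h 5.30, 16.8 and 12.6 CPM. All mice at every later time were above 0 h except mouse 1 at 7 d, which had 3 counts (0.777 CPM). The other 7 d mice ran up to 28.2 CPM, and the 7 d median of 18.3 CPM was the highest of the medians. The log2 fold change was 3.70 (SE 0.76; 2.99 in log2(TPM + 1)) at 7 d and still 2.37 (SE 0.78) at 21 d, when the mice had 12.2, 4.31 and 2.96 CPM.

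Il1b had a course like that of Cxcl2. At 0 h it had 0.240, 0.107 and 1.28 CPM, the highest again in the early mouse 3. At 3 h the mice had 0.612, 5.36 and 3.61 CPM, at 6 h 16.8, 5.57 and 9.20 CPM, and at 12 h 6.20, 13.4 and 19.4 CPM. The 24 h levels were 20.7, 18.0 and 33.0 CPM. From 6 h to 14 d every mouse was above every 0 h mouse. The log2 fold change at 24 h was 5.65 (SE 1.05), 6.91 without mouse 3 at 0 h, and 4.38 as a mean difference in log2(TPM + 1). At 7 d the lowest, median and highest were 7.43, 15.5 and 60.9 CPM, the last in mouse 5. At 14 d the mice had 21.7, 8.13 and 33.3 CPM and at 21 d 3.98, 16.6 and 0.684 CPM. The mean was 23.9 CPM at 24 h, 23.4 CPM at 7 d and 21.0 CPM at 14 d, with overlapping values. By mean TPM, 7 d and not 24 h was the highest time of Il1b.

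Across the 30 libraries, log2(CPM + 1) of Cxcl2 and Il1b had a Pearson correlation of 0.873, and of 0.656 after the mean of each time point was removed. These points share the library, its depth and its time. The same mice carried high values of both, namely mouse 5 at 7 d, mouse 3 at 14 d and mouse 2 at 21 d. In Cxcl1 and Cxcl5 the correlation was lower, at 0.499, and mouse 5 at 7 d, the highest in Cxcl1, was the lowest in Cxcl5.

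Il1rn, the receptor antagonist, was already abundant at 0 h, with 41.3, 34.0 and 49.1 CPM. Its fitted log2 fold changes lay between -0.35 at 21 d and 0.14 at 6 h, with SE of at most 0.19. The lowest level in any mouse was 27.3 CPM at 21 d and the highest 56.4 CPM at 3 d. No time point had all of its mice above or all below the 0 h mice. The expected count of Il1rn was whole in only 1 of 30 libraries. Of its 31-base stretches 0.744% occur in other genes, and 0% of its 65-base stretches. The part of shared reads in its level was not tested.

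**Figure D2:**
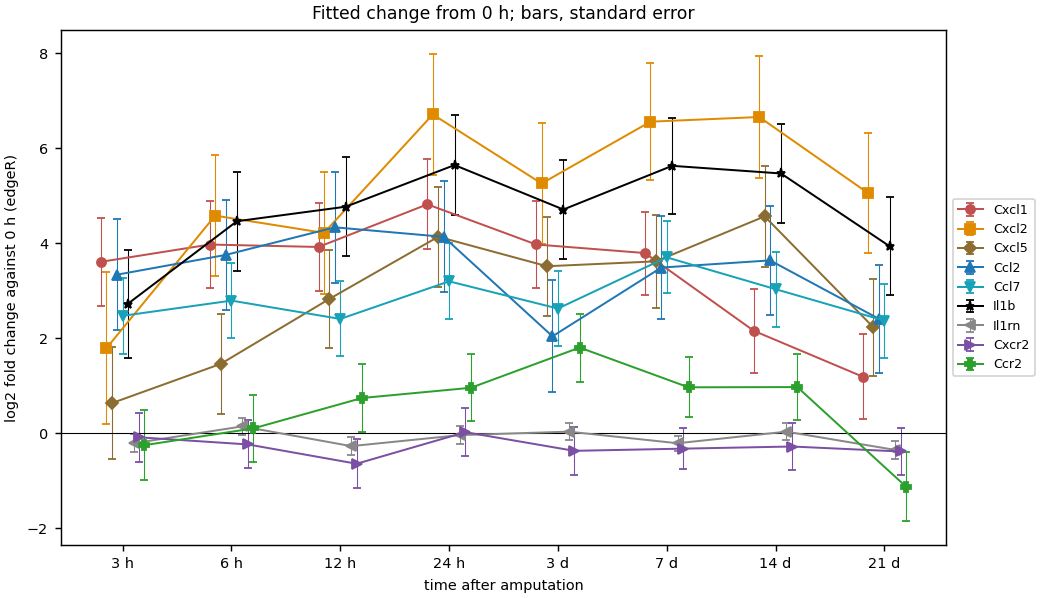
Fitted log2 fold change against 0 h (edgeR, y axis) at each later time for 9 of the genes, with bars for the SE; Cxcl3 is left out because its 0 h counts are all 0. Cxcl2 and Il1b have the largest changes from 24 h on, and Il1rn and Cxcr2 stay near 0.

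Cxcr2, the receptor of the CXC ligands, showed no such course. Its levels at 0 h were 22.6, 31 and 14.7 CPM, and the log2 fold changes lay between -0.64 at 12 h and 0.02 at 24 h, with SE of 0.43 to 0.51. Mice of 1 time point differed by more than this, such as 37.3 and 5.57 CPM at 7 d. The 24 h value turned to -0.48 without mouse 3 at 24 h and to -0.22 without the 2 libraries that share a title code. Of the 31-base stretches of its transcript, 7.76% also occur in other genes, and 1.91% of those of 65 bases, the read length. Its expected count was whole in only 3 of 30 libraries, so that reads were partly shared out between genes.

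Ccr2, the monocyte receptor, had its highest mean level at 3 d. At 0 h it had 5.6, 3.84 and 3.68 CPM. At 3 d it had 10.8, 13.2 and 22.3 CPM, all above every mouse at 0 h and at 14 d, with a log2 fold change of 1.8 (SE 0.72). The 14 d mice had 8.48, 9.47 and 7.97 CPM, also above 0 h. At 7 d it ran from 0.369 to 25.0 CPM. At 21 d it had 2.78, 1.74 and 1.48 CPM, below every 0 h mouse, with a log2 fold change of -1.13 (SE 0.73). Its transcript shares 6.80% of its 31-base and 3.0% of its 65-base stretches with other genes, and its expected count was whole in 4 libraries. Cxcr2 and Ccr2 had a correlation of -0.526 over the 30 libraries, and of -0.665 within time points.

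For comparison with the whole table, counts were set beside the share of all tested genes. Over all time points, the edgeR quasi-likelihood F-test with Benjamini-Hochberg adjustment called 1243 genes, 9.01% of those tested, among them Cxcl1, Cxcl2, Cxcl5 and Il1b. Against 0 h, none of the 10 genes was called at 3 h (0.254% of all genes called), 6 h (0.189%) or 12 h (0.167%) by edgeR, although 4, 5 and 7 of them had an unadjusted p under the threshold of 0.05 and the DESeq2 test called 1, 4 and 3. At 24 h 3 were called (Cxcl1, Cxcl2 and Il1b, with 0.493% of all genes), and at 3 d 2 (Cxcl1 and Il1b, 0.551%). At 7 d 5 were called (Cxcl1, Cxcl2, Cxcl5, Ccl7 and Il1b, 2.34%), at 14 d 4 (Cxcl2, Cxcl5, Ccl7 and Il1b, 1.61%) and at 21 d 2 (Cxcl2 and Il1b, 1.94%). The DESeq2 test called 6 of the 10 at 24 h, 4 at 3 d, 6 at 7 d, 5 at 14 d and 3 at 21 d. The percentages given are of the adjusted edgeR calls only. The shares of all genes with an unadjusted p under 0.05, or called by the DESeq2 test, were not counted, so those numbers have no background. All of the edgeR calls were higher than at 0 h. As the genes were chosen with these contrasts known, nothing is read from the shares.

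Counted by overlap, 3 of the 10 genes had all mice above every 0 h mouse at 3 h, where 9.16% of all tested genes did. It was 6 at 6 h (8.61% of all genes), 5 at 12 h (9.82%), 6 at 24 h (8.77%) and 6 at 3 d (8.16%). At 7 d, with 6 mice, it was 5 (3.92%), at 14 d 6 (13.6%) and at 21 d 2, Cxcl2 and Ccl7 (12.5%).

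In TPM, which takes account of transcript length, the mix of the 4 CXC ligands differed between times. At 0 h Cxcl1 made up 66.7% to 86.2% of their summed TPM, at 3 h 82.4% to 98.1%, at 6 h 80.2% to 88.8% and at 12 h 80.2% to 88.2%. The share of Cxcl1 was 64.0% to 82.5% at 24 h, 47.2% to 84.0% at 3 d, 55.9% to 65.5% in the 6 mice at 7 d, and 4.24%, 46.6% and 24.4% in the 14 d mice. At 21 d it was 73.6%, 15.2% and 57.6%, on both sides of the 7 d range. Cxcl2 made up 20.8% to 42.8% at 7 d and 25.1% to 88.7% at 14 d. The TPM of Cxcl2 exceeded that of Cxcl1 in 3 libraries, mice 1 and 3 at 14 d and mouse 2 at 21 d, and the ratio reached 20.9 in mouse 1 at 14 d. Cxcl2 and Cxcl3 share 7.41% and 8.11% of their 31-base stretches with each other, and 4.4% and 4.83% of those of 65 bases, whereas Cxcl1 shares none with another gene. Reads of the shared stretches may have been split. For Cxcl3, with far fewer counts, that part may not be small. Mice 1 and 3 at 14 d had 185.85 and 843.53 counts of Cxcl2, against 14.15 and 68.63 of Cxcl3. The part of shared reads in these was not tested.

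**Figure D3:**
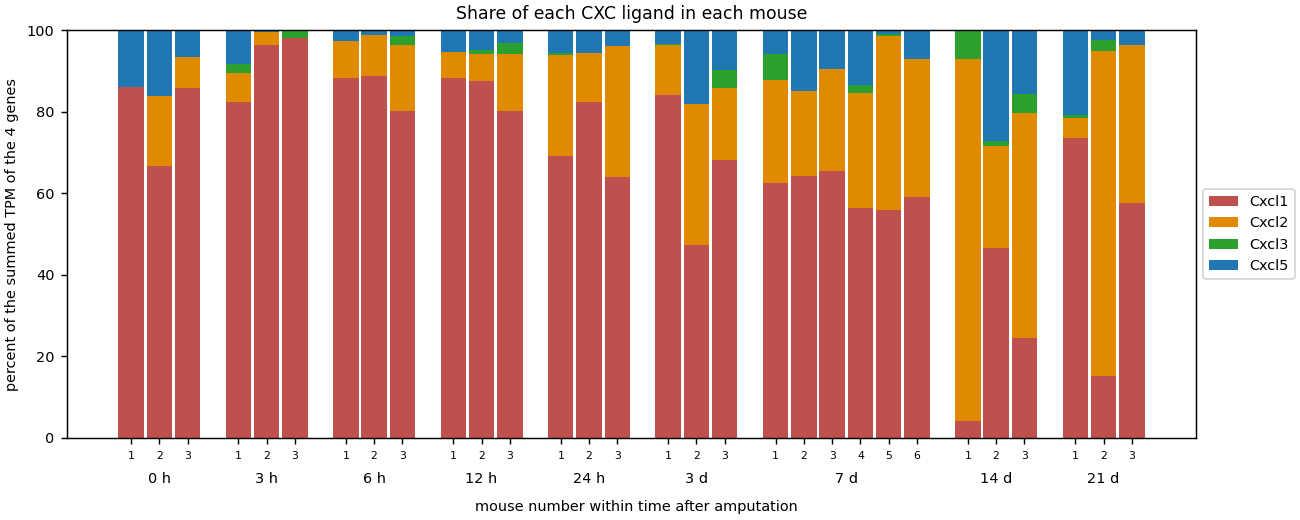
Percent of the summed TPM of Cxcl1, Cxcl2, Cxcl3 and Cxcl5 (y axis) that each gene makes up in each of the 30 mice, grouped by time after amputation. Cxcl1 fills most of every bar up to 12 h, and Cxcl2 is the largest part in mice 1 and 3 at 14 d and mouse 2 at 21 d.

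The ratio of antagonist to cytokine was lower in every mouse from 6 h to 14 d than in mouse 3 at 0 h, the only 0 h mouse with enough Il1b counts for a ratio, with Il1b higher and Il1rn near its 0 h level. At 0 h the TPM of Il1rn was 20.8 times that of Il1b in mouse 3, and mice 1 and 2 had 3 counts or fewer of Il1b. It was 3.70 and 6.55 times in mice 2 and 3 at 3 h, where mouse 1 had 3 counts, and 1.57 to 5.43 times at 6 h. At 24 h the ratio was 0.707 to 1.32 and at 7 d 0.368 to 3.08. Il1b exceeded Il1rn in 5 libraries, mouse 3 at 12 h, mouse 3 at 24 h, mice 3 and 5 at 7 d and mouse 3 at 14 d. At 21 d the ratio ranged from 1.23 to 31.8.

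**Figure D4:**
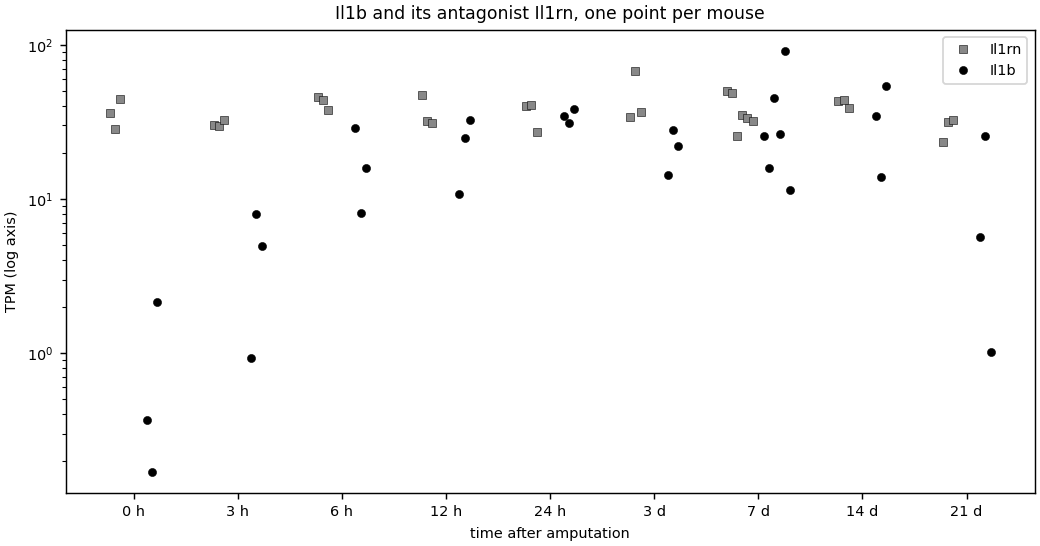
TPM of Il1b (black circles) and Il1rn (grey squares) in each mouse on a log axis against time after amputation. Il1rn lies between 23.3 and 67.3 TPM throughout, and Il1b climbs from at most 2.15 TPM at 0 h into that range by 24 h.

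Whether the levels differed between the date periods was tested in the 21 libraries of the 6 time points that hold both. With time in the fit, edgeR's quasi-likelihood test called 3192 of 13587 genes, 23.5%, and 2 of the 10 genes, a share near that background. Ccl7 was higher in the late period by a log2 fold change of 1.40 (SE 0.34, adjusted p = 0.00444). At 7 d the early mice had 0.777 and 8.78 CPM and the late ones 13.6 to 28.2 CPM. Of these late mice, 3, 4 and 6 are the left-foot ones, and both early mice are right foot, so date period and foot are mixed at 7 d. Cxcr2 was higher in the late period by 0.87 (SE 0.23, adjusted p = 0.00876). The adjusted p was 0.0845 for Cxcl1 and 0.0669 for Cxcl2, with log2 fold changes of 1.0 and 1.1. Without mouse 3 at 0 h, 4 of the 10 genes were called, and 3 without the left-foot libraries. The share of all genes called in these fits was not counted. The median total count was 5083528 in early and 9836324 in late libraries, and the part of depth in these differences was not tested.

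A test of the interaction asked whether the time course itself differed between periods. It called 120 of 13587 genes, 0.883%, and 2 of the 10 genes, Cxcl1 (adjusted p = 0.0452) and Cxcl5 (adjusted p = 0.0414), by edgeR with Benjamini-Hochberg adjustment. At 0 h the early mouse had 9.76 CPM of Cxcl1 and the late mice 1.49 and 2, whereas at 14 d the early mouse had 1.41 CPM and the late mice 23.4 and 29.1. For Cxcl5 the 14 d values were 0 CPM in the early mouse and 24.0 and 32.7 CPM in the late mice. In mean log2(CPM + 1), the 14 d difference from 0 h was -2.16 within the early and 3.31 within the late period for Cxcl1, and -1.19 and 4.18 for Cxcl5. Several cells of this fit hold 1 mouse. The count of genes called was also 2 when mouse 2 at 6 h, mouse 1 at 3 d or mouse 3, 4 or 5 at 7 d was left out. It was 1 without mouse 3 at 0 h or mouse 3 at 6 h, and 0 without any 1 of the other 14 libraries.

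At 24 h, Cxcl1, Cxcl2, Cxcl5, Ccl2, Ccl7 and Il1b were above 0 h within both periods. The early comparison has 1 mouse at 0 h and the late comparison 1 mouse at 24 h. The difference of mean log2(CPM + 1) from 0 h was 3.38 and 5.49 for Cxcl1, 3.89 and 5.85 for Cxcl2, 2.76 and 3.16 for Cxcl5, 2.41 and 1.18 for Ccl2, 2.84 and 2.42 for Ccl7, and 3.16 and 4.86 for Il1b, early and late respectively. For Il1rn it was -0.27 and 0.07. For the times at 3 h and 12 h, the early period gives only mouse 3 at 0 h as a reference, and the differences of Cxcl1 were then 1.98 and 2.48. At 21 d only the late period has mice, and the differences were 1.62 for Cxcl1, 2.48 for Cxcl2 and 2.17 for Il1b.

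**Figure D5:**
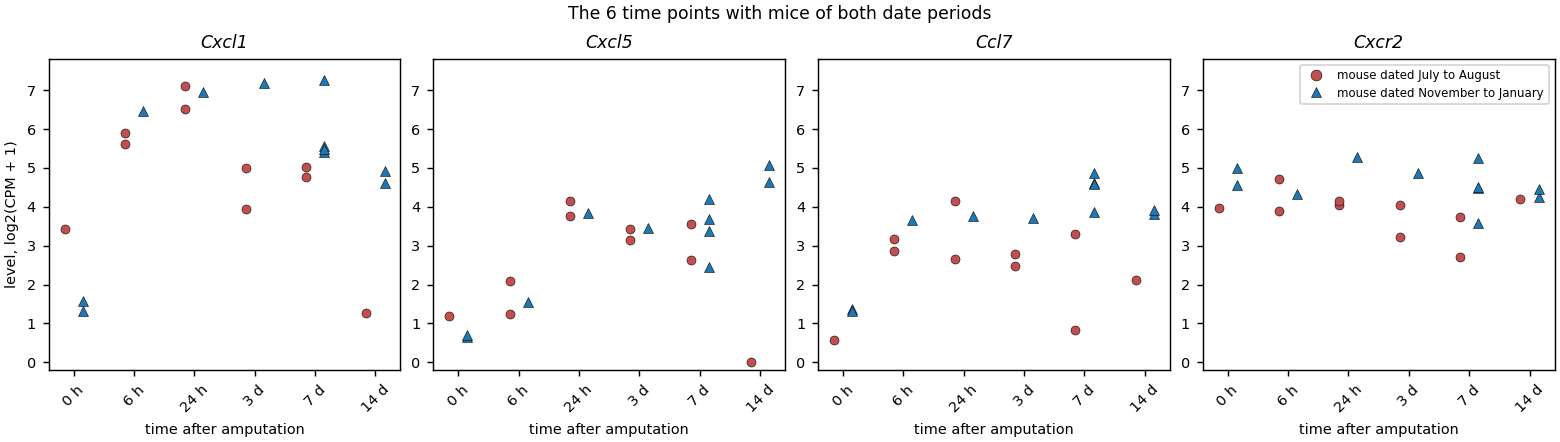
Levels of Cxcl1, Cxcl5, Ccl7 and Cxcr2 as log2(CPM + 1) in the 6 time points with mice of both date periods, with 1 point per mouse, circles for early and triangles for late. At 14 d the early mouse is far below the late mice in Cxcl1 and Cxcl5, and at 7 d all 4 late mice are above both early mice in Ccl7.

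The other genes of these pathways came from 7 lists of 99 genes, with 94 in the table and 73 tested. These lists too were written with earlier results of these data known, so that their p-values are no independent evidence. By the edgeR F-test 16 of them changed over time, and 9 differed from 0 h at 1 or more times. Of all tested genes, the F-test called 9.01%, and the comparisons with 0 h called from 0.167% at 12 h to 2.34% at 7 d. The share of all genes called at 1 or more times was not counted, so the 9 have no such background. The count of 9 fell to 3 without mouse 1 at 0 h and to 5 without mouse 2 at 0 h. By time, 1 gene was higher at 3 h and at 6 h, 2 at 12 h, 3 at 24 h, 5 at 3 d, 6 at 7 d and 3 at 14 d, and 2 were lower at 7 d. At 21 d none passed by edgeR or by the DESeq2 test, with 10 at an unadjusted edgeR p under 0.05, for which the share of all genes was not counted. The median log2 fold change of the 73 was 0.39 at 24 h, against 0.01 over all tested genes, and 0.39 at 7 d, against -0.01.

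Among other CXC ligands, 1 of 5 tested differed from 0 h. Cxcl14, a chemokine of skin epithelium, went from 54.5 ± 10.5 CPM at 0 h to 205 ± 64.8 CPM at 24 h (SD, n = 3 each), a log2 fold change of 1.91 (SE 0.40, edgeR adjusted p = 0.014). It was above 0 h in all mice from 12 h to 7 d. Cxcl12, the ligand of Cxcr4, changed over the time course (edgeR F-test, adjusted p = 0.0285) but passed at no single time. Among CC ligands, 1 of 14 tested differed from 0 h. Ccl9, a ligand of Ccr1, went from 5.40 ± 1.67 CPM to 52.6 ± 12.3 CPM at 3 d (SD, n = 3 each), by a log2 fold change of 3.30 (SE 0.54, edgeR adjusted p = 0.00097). Ccl3 and Ccl4, known for attracting monocytes and other leukocytes, had at most 49 and 65.3 counts in a library and edgeR F-test adjusted p of 0.0631 and 0.11. Ccl6 changed over the time course (adjusted p = 0.0254), with 64.3 ± 36.7 CPM (SD, n = 6) at 7 d against 26.9 ± 10.3 (SD, n = 3) at 0 h.

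Of 12 chemokine receptors tested, 2 differed from 0 h, both higher. Ccr1, a receptor of monocytes and neutrophils, rose from 1.64 ± 0.338 CPM to 15.2 ± 4.58 CPM at 3 d (SD, n = 3 each; log2 fold change 3.19, SE 0.76, edgeR adjusted p = 0.047) and was also called at 7 d (adjusted p = 0.0047). Cxcr4 rose by 2.54 at 3 d (SE 0.58, adjusted p = 0.0331), 2.37 at 7 d (adjusted p = 0.012) and 2.39 at 14 d (adjusted p = 0.0232) on the log2 scale. Cxcr1, the other receptor of ELR chemokines, had at most 2 counts and was not tested. Darc, also named Ackr1, a decoy receptor of venules and red cells, was at most 41 counts, with an F-test adjusted p of 0.524.

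In the IL-1 family, neither of the receptors that bind Il1b passed the test. The log2 fold changes of Il1r1 lay between 0.14 and 0.83 (edgeR F-test adjusted p = 0.266). Those of the decoy receptor Il1r2 lay between 0.07 and 1.23 (adjusted p = 0.176). Il1a, the other agonist of Il1r1, was 9.29 ± 3.61 CPM before and 14.5 ± 3.98 CPM 12 h after amputation (SD, n = 3 each; F-test adjusted p = 0.668). In contrast Il1rl1, the receptor of Il33, rose from 3.63 ± 1.64 to 69.1 ± 6.11 CPM at 24 h (SD, n = 3 each), by a log2 fold change of 4.28 (SE 0.73, edgeR adjusted p = 0.00244). Il33 itself changed over the time course (F-test adjusted p = 0.0473). Il1f6, the epithelial agonist also named Il36a, fell by 1.25 on the log2 scale at 7 d (SE 0.29, adjusted p = 0.0147), with all 6 mice below 0 h. Il18 (F-test adjusted p = 0.0373), Pycard, the inflammasome adaptor (0.0104), and Irak4, a kinase below the receptor (0.0381), changed over the time course without passing at a single time.

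Among NF-kB subunits and feedback genes, 3 of 15 tested differed from 0 h, 2 higher and 1 lower. Nfkbiz, an inducible nuclear cofactor of NF-kB, was highest at 3 h, with 149 ± 64.5 CPM against 54.3 ± 17.7 at 0 h (SD, n = 3 each; log2 fold change 1.46, SE 0.29, edgeR adjusted p = 0.0151). Bcl3, another nuclear cofactor, was called at every time from 6 h to 14 d, with a log2 fold change of 3.20 at 12 h (SE 0.60, adjusted p = 0.01). Zfp36, which binds and destabilizes cytokine mRNAs, fell by 1.8 at 7 d on the log2 scale (SE 0.38, adjusted p = 0.00608), and all mice from 6 h on were below every 0 h mouse. Nfkbia, the inhibitor induced by NF-kB, changed over the time course (F-test adjusted p = 0.0276), from 54.3 ± 4.35 CPM at 12 h to 145 ± 54.0 CPM at 3 h (SD, n = 3 each). Tnf had at most 19 counts and was not tested.

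Markers of the cells that these chemokines attract are given beside them. The share of all tested genes called by the F-test was 9.01%. Of 12 neutrophil markers, 11 were in the table, 8 were tested and 3 were called by the F-test, Mmp9, S100a8 and S100a9. Their summed level was 9.38 to 25.9 CPM at 0 h, 22.0 to 41.6 at 3 h, 46.4 to 58.4 at 6 h, 26.3 to 64.2 at 12 h and 50.8 to 111 at 24 h. It was 400 to 511 CPM at 3 d, 806 to 2135 at 7 d, 383 to 850 at 14 d and 107 to 558 at 21 d. Most of that sum from 3 d on was Mmp9, at 1142 ± 499 CPM (SD, n = 6) at 7 d, a gene that osteoclasts also express strongly, and the bone cell markers were likewise highest at 7 d (707 to 1984 CPM). S100a8 and S100a9 are also made by wound keratinocytes. Of the other markers on this list, Fpr1 and Fpr2 had at most 7 and 10 counts in a library. Csf3r reached 139 counts and Trem1 56. At 7 d Csf3r was above 0 h in all 6 mice (log2 fold change 2.35, SE 0.69, edgeR adjusted p = 0.0707). At 24 h Trem1 was above 0 h in all 3 mice (log2 fold change 3.88, SE 1.24, adjusted p = 0.243). Neither gene was called against 0 h at any time. The log2 fold change of Csf3r was -0.88 at 3 h, and Trem1 overlapped 0 h at 3 d. Whether neutrophil number plays a part in the chemokine levels was not tested.

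Of 10 monocyte and macrophage markers, 9 were in the table, 8 were tested and 3 were called by the F-test. Their sum was 107 to 137 CPM at 0 h, 68.3 to 166 at 3 h, 71.6 to 119 at 6 h, 127 to 177 at 12 h and 141 to 157 at 24 h. It was 104 to 282 at 3 d, 108 to 457 at 7 d, 178 to 239 at 14 d and 100 to 177 at 21 d. Ly6c2, which marks inflammatory monocytes, had at most 4.5 counts in a library. Csf1r was higher at 7 d by a log2 fold change of 1.99 (SE 0.48, edgeR adjusted p = 0.0194). Cd14 was higher by 2.05 at 24 h (SE 0.48, adjusted p = 0.044) and by 1.86 at 14 d (SE 0.48, adjusted p = 0.0378). The other tested markers of this list passed at no single time. Lymphocyte markers summed to at most 8.53 CPM in any mouse. Fibroblast markers summed to 3743 to 6568 CPM at 0 h and to 21790 to 39320 CPM at 21 d. Of 6 platelet and erythroid markers, 6 were in the table, 5 were tested and 2 were called by the F-test. They summed to 55.7 to 266 CPM at 0 h and to 22.3 to 39.9 CPM at 14 d, with 1 gene called lower at 3 d, 7 d and 14 d each and 2 at 21 d. The correlation of this sum over the 30 libraries was -0.57 with Il1b and -0.498 with Cxcl2. For the neutrophil sum it was 0.598 and 0.652, and for the monocyte and macrophage sum 0.306 and 0.286. For the remaining marker sums it lay between -0.426 and 0.387 with Il1b and between -0.398 and 0.368 with Cxcl2. The keratinocyte sum was 67630 to 68990 CPM at 0 h and 33700 to 39930 CPM at 14 d. Their part in the values of the 10 genes was not tested.

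For each of the 10 genes, the 3 tested genes most like it were taken by the Pearson correlation of log2(CPM + 1) over the 30 libraries, which share time, depth and period. For Cxcl1 they were Il6 (0.842), an acute phase cytokine, Sele (0.808), the endothelial selectin that slows leukocytes, and Lif (0.786), a cytokine of the Il6 family. Cxcl2 was most like Il1b (0.873), Clec4d (0.838), a lectin receptor of myeloid cells, and S100a9 (0.768). Il1b was followed, after Cxcl2, by Timp1 (0.791), an inhibitor of metalloproteinases, and Slc39a14 (0.777), a metal transporter.

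Cxcl5 stood with Gpm6b (0.756), Mmp13 (0.749), a collagenase, and Fgf7 (0.727), a fibroblast growth factor that acts on epithelium. Cxcl3 was most like Cyp4f18 (0.739), Irg1 (0.665) and Osm (0.634), a cytokine of the Il6 family. Ccl2 had Bcl3 (0.709), P2ry6 (0.613) and Plaur (0.595), the urokinase receptor, and Ccl7 had Smim3 (0.732), Vmp1 (0.720) and Derl1 (0.700). For Ccr2 they were Coro1a (0.846), a leukocyte actin regulator, Anpep (0.778) and Serpina3m (0.738). For Cxcr2 they were Nsfl1c (0.829), Hras (0.797) and Ptma (0.794), and for Il1rn, whose level hardly varied, Cd8a (0.646), Ttc39b (0.579) and Lmbr1 (0.570).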

How the data were processed

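Polyadenylated RNA of 30 digits was sequenced as single-end reads after ligation-mediated library preparation, with PCR copies not marked by molecular identifiers. The authors called reads with CASAVA 1.8.2, mapped them to Ensembl mouse transcripts with Bowtie and estimated values per gene with RSEM 1.2.3 (per the labels and methods; build mm10). The deposited expected counts are not normalized. The TPM of each library, also computed by the authors, refer to the sum over the genes of that library. Another deposited table holds the authors' average signal per time point, TPM scaled by median-by-ratio normalization and averaged over mice.

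Expected counts were rounded to whole numbers and analysed with edgeR 4.0.16 in R 4.3.3 (TMM, filterByExpr by time point, quasi-likelihood tests, Benjamini-Hochberg adjustment, threshold 0.05), all 30 libraries in 1 fit without covariates. Folds have SE from that fit. Plots and summaries used Python 3.11.15, pandas 2.3.3 and matplotlib 3.10.9. The methods were tested on simulated data. A count of 3 was taken as the floor, which covers counting error only. No 2 libraries of a time point agreed within sampling noise (chi-square per gene from 9.83 to 94.8 over 39 pairs).

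The 10 genes, the pathway and marker lists and the tests were chosen with earlier results of these data known. Named pathway genes are those called against 0 h, a fixed set (Il1a, Il1r1, Il1r2, Cxcr1, Cxcr4, Ccr1, Ackr1, Ccl3, Ccl4, Tnf and Nfkbia), and, chosen after their values were seen, the others called by the F-test, of which 1 is not reported here. Gene positions and transcripts are of GRCm38. Alternatives were DESeq2 1.42.0 (size factors, and its test), no filter on low counts, date period as a covariate, leaving out left-foot libraries, TPM with a pseudocount of 1 or 0.1, each library left out, and, added after seeing the titles, removal of the 2 libraries that share a code.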

Additional observations from a re-analysis of the deposited data

Results flagged for a closer look

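Among the 6 mice at 7 d, mouse 5 stood apart in Cxcl1. In log2(CPM + 1), its gap to the next mouse was 0.685 of the whole range, over the limit of Dixon's test. Chance flags about 1 in 20 such groups, and 10 genes were looked at. The same mouse was highest in Cxcl2, Il1b and Ccl7 and lowest in Cxcl5.

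The time course of Cxcl1 (interaction of date period and time, edgeR adjusted p = 0.0452) and of Cxcl5 (adjusted p = 0.0414) differed between the date periods. The only 14 d mouse of the early period had 8 counts of Cxcl1 and 0 of Cxcl5. Without it neither was called, but the interaction at 14 d then cannot be estimated. The calls were also lost without mouse 2 or mouse 3 at 14 d, and without any 1 of the 24 h mice. The cause of the difference was not tested.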

How the results depend on the processing

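The 16 pathway genes called over the time course became 29 with the DESeq2 test, 11 without the 2 libraries that share a title code, and ran from 12 to 21 with each library left out. The 9 called against 0 h became 16 with the DESeq2 test, 14 with date period as a covariate and 6 without those 2 libraries, and ran from 3 to 12 with each library left out. The 2 genes called between date periods became 4 without a filter on low counts and 4 without the 2 libraries that share a title code, and 2 to 4 with each library left out. The share of all genes called was not counted under any of the alternatives here. For the interaction the 2 calls became 1 without those 2 libraries and 0 to 2 with each library left out. The log2 fold change of Cxcr2 at 24 h, 0.02, turned to -0.22 without the 2 libraries that share a code, -0.10 in log2(TPM + 1) and -0.11 in log2(TPM + 0.1), and ran from -0.48 to 0.31 with each library left out. Of 370 values of the folds of the 10 genes at their highest times, 350 moved by less than 1 SD in the same direction, 15 moved by more and 5 turned sign, all of Cxcr2. In mean TPM, 6 of the 10 genes had the same highest time as in mean CPM. The causes were not tested. No paired analysis was possible because the replicate numbers follow the order of deposit and pair no mice. Depth limits Cxcl3, with 3 counts or fewer in 16 of 30 libraries, and the 0 h level of Ccl2, Cxcl2 and Il1b.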

Other observations

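Genes of maturing neutrophil granules were highest in 1 mouse. Mouse 1 at 7 d held 173 counts of Ngp, 86 of Camp and 37 of Mmp8, each the highest of the series, while the 7 d medians of Ngp and Camp were 0 CPM. In that mouse Ccl7 was the lowest of the 7 d mice (3 counts) and Cxcl3 the highest (13 counts), and Cxcl1, Cxcl2 and Il1b lay between the lowest and the highest of the other mice at that time.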
